A study of Mus musculus with 4 samples.

Results

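The B cell and antibody-secreting cell transcripts described here are those of 9 genes: Cd79a, Cd79b, Ms4a1 and Pax5, which mark B cells in general, and Jchain, Igha, Mzb1, Tnfrsf17 and Prdm1, which mark cells that secrete antibody. They were chosen by name after an earlier comparison of these same arrays had placed Jchain and Igha among the largest differences, so the measured difference between the groups guided the choice. Their values are therefore a description, without a test. All probe sets annotated with 1 of these symbols alone were taken, which gave 13 of the 34945 single-symbol probe sets on the array and 9 of 18193 genes. Of the 13 probe sets 12 passed a filter on dim signals, and 8 of the 9 genes entered the fit across all genes. Tnfrsf17 did not.

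Total RNA of 2 G-MDSC samples and 2 neutrophil samples from female C57BL/6 mice was hybridised to 1 oligonucleotide array each. G-MDSC, granulocytic myeloid-derived suppressor cells, were selected with Ly6G microbeads from spleens of mice that carried subcutaneous EL4 lymphoma for 3.5 weeks, and are described as CD11b+Ly6G+Ly6Clow. Neutrophils came from the peritoneal cavity of mice given 2 intraperitoneal doses of 1.5 ml of 12% casein 16 h apart and killed 3 h after the second, and were depleted of F4/80-bearing cells before the same Ly6G selection. Red cells were lysed in all samples. Cell kind, tissue, tumour, casein and the depletion step changed together and cannot be told apart. Whether the 2 samples of a group were taken from different mice is not given in the labels. The p-values below therefore measure no more than the spread between the samples, and that spread may be technical. The granulocyte genes S100a8 and S100a9 had high signals in all 4 arrays (44932 to 85891 signal units). The second neutrophil array stood apart for dim signals, with a median signal of 178 and its 40th percentile was 133, compared with 45.7 to 52.5 elsewhere.

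B cells carry surface immunoglobulin bound to the signalling pair of CD79A and CD79B, and express CD20, the product of Ms4a1. PAX5 is the transcription factor that maintains B cell identity. When a B cell becomes a plasma cell, BLIMP-1, the product of Prdm1, represses Pax5 and the B cell programme. The cell then secretes large amounts of immunoglobulin, and the joining chain (Jchain) links IgA and IgM into polymers. The spleen holds many B cells, and the peritoneal cavity holds B cells of the B-1 kind.

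Among the pan-B transcripts, the groups overlapped for Cd79a and Ms4a1 and lay close together for Cd79b. Cd79a had signals of 1386 and 1250.4 in the G-MDSC arrays, against 762 and 1295 in the neutrophil arrays. The first neutrophil array was the lowest, and the second lay between the G-MDSC arrays. Cd79b had signals of 1419.8 and 1243 in the G-MDSC arrays, against 1679 and 2011 in the neutrophil arrays. Both G-MDSC arrays were the lower ones, by a log2 difference of -0.46 ± 0.31 (SE, n = 2 per group), whose sign turned to 0.17 with median scaling. Ms4a1 is measured by 2 probe sets. The one that represents the gene had 3275 and 4084 in the G-MDSC arrays, against 2751 and 4256 in the neutrophil arrays, and the other had 681 and 1058 in the G-MDSC arrays, against 655 and 1344 in the neutrophil arrays. On both probe sets the neutrophil arrays enclosed the G-MDSC arrays, and the second array of each group was the brighter one. The log2 difference was 0.40 ± 0.34 for Cd79a and 0.10 ± 0.33 for the representing Ms4a1 probe set. For Cd79a it was 0.02 without neutrophils replicate 1 and 0.78 without neutrophils replicate 2, and for Ms4a1 it was -0.22 and 0.41.

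Pax5 was dim on both of its probe sets. One had 46.3 and 68.7 in the G-MDSC arrays, against 15.6 and 17.3 in the neutrophil arrays, and the other had 48.0 and 83.1 in the G-MDSC arrays, against 75.1 and 112 in the neutrophil arrays. The first, which passed the filter only through the G-MDSC arrays, separated the groups and the second did not. Both neutrophil arrays of the first probe set, and the second neutrophil array of the other, lay at or below the 40th percentile of their array, so no fold is given for this transcription factor.

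Among the transcripts of antibody-secreting cells, Jchain and Igha were far higher in G-MDSC. Jchain had signals of 8912 and 4232 in the G-MDSC arrays, against 310.0 and 215 in the neutrophil arrays. The groups were widely apart, and within G-MDSC the first array was 2.11 times the second. The log2 difference was 4.49 ± 0.39 (SE, n = 2 per group), a 22.4-fold difference on the scale of log2(signal + 16), and ran from 3.95 without G-MDSC replicate 1 to 5.02 without G-MDSC replicate 2.

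Igha encodes the constant region of the IgA heavy chain and is measured by 3 probe sets. The one with the highest mean log2(signal + 16), which represents the gene, had 5802 and 3869 in the G-MDSC arrays, against 247 and 320.2 in the neutrophil arrays, a log2 difference of 3.999 ± 0.34. Another had 7520.4 and 5025 in the G-MDSC arrays, against 13.9 and 214 in the neutrophil arrays. The last had 7313 and 4789 in the G-MDSC arrays, against 14.3 and 89.2 in the neutrophil arrays. On all 3 probe sets both G-MDSC arrays were the higher ones, and the first of them was about 1.50 to 1.53 times the second. The neutrophil values differed between probe sets: the second neutrophil array was 15.3 times the first on the probe set named next, 6.23 times on the last one and 1.30 times on the representing one. As measured, the log2 differences of the other 2 probe sets were 6.22 and 6.72. Both neutrophil arrays of the last one lay below their 40th percentile, so it passed the filter only through the G-MDSC arrays. That probe set gives only a bound of at least 59.3-fold for its own signal, as a description. The representing probe set, above the 40th percentile in all 4 arrays, gave 15.99-fold, so the probe sets disagree on the size of the Igha difference and the bound does not hold for the gene. The bound takes, for each dim array, the higher of its signal and its 40th percentile. It was 39.9-fold with the highest of the 4 percentiles as a common floor or without neutrophils replicate 1, and 88.1-fold without neutrophils replicate 2. Immunoglobulin constant regions are alike in sequence, and 2 of the 3 probe sets carry the suffix x, which marks probes shared with other transcripts.

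The remaining transcripts of antibody-secreting cells gave other values. Mzb1, a chaperone of the endoplasmic reticulum in B cells and plasma cells, had signals of 1442 and 1222 in the G-MDSC arrays, against 1787 and 1760 in the neutrophil arrays. Both G-MDSC arrays were slightly the lower ones, by a log2 difference of -0.41 ± 0.30 (SE, n = 2 per group), whose sign turned to 0.22 with median scaling. Tnfrsf17, which encodes BCMA, the receptor through which plasma cells receive survival signals, had signals of 101 and 24.7 in the G-MDSC arrays, against 5.45 and 116 in the neutrophil arrays. Only the first G-MDSC array was above its 40th percentile, so no fold is given.

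Prdm1 went the other way. It had signals of 124 and 157 in the G-MDSC arrays, against 915 and 822 in the neutrophil arrays, a log2 difference of -2.50 ± 0.36 (SE, n = 2 per group) with groups that did not overlap. Its lowest and highest values on leaving out 1 array were -2.66 and -2.35, and it was -1.91 with median scaling. BLIMP-1 is also made outside the B lineage, in macrophages and T cells among others. Markers of macrophages moved in the same direction: of 12 tested, 10 (83.3%) were lower in G-MDSC by limma, against 8.05% of all genes. Of the 12, 0 were higher (0 also at an unadjusted p under 0.05), and with median scaling 4 were lower. Msr1 and Marco, scavenger receptors, had differences of -5.89 ± 0.33 (adjusted p = 2.53e-06) and -5.36 ± 0.46 (adjusted p = 3.76e-05), the transcription factor Maf -3.74 ± 0.31 (adjusted p = 3.62e-05) and C1qb, a complement subunit, -3.05 ± 0.46 (adjusted p = 0.00133). The summed signal of the 12 was 16982 and 16997 in the G-MDSC arrays, against 44449 and 65050 in the neutrophil arrays. Adgre1, which encodes F4/80, the antigen used for depletion of the neutrophil samples, had 817 and 643 in the G-MDSC arrays, against 4847 and 7136 in the neutrophil arrays. Marco had 24.9 in the first G-MDSC array, below the 40th percentile of that array (45.7). A signal above 0 does not by itself show that a transcript was present. The part of macrophages in the Prdm1 signal was not tested.

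**Figure D1:**
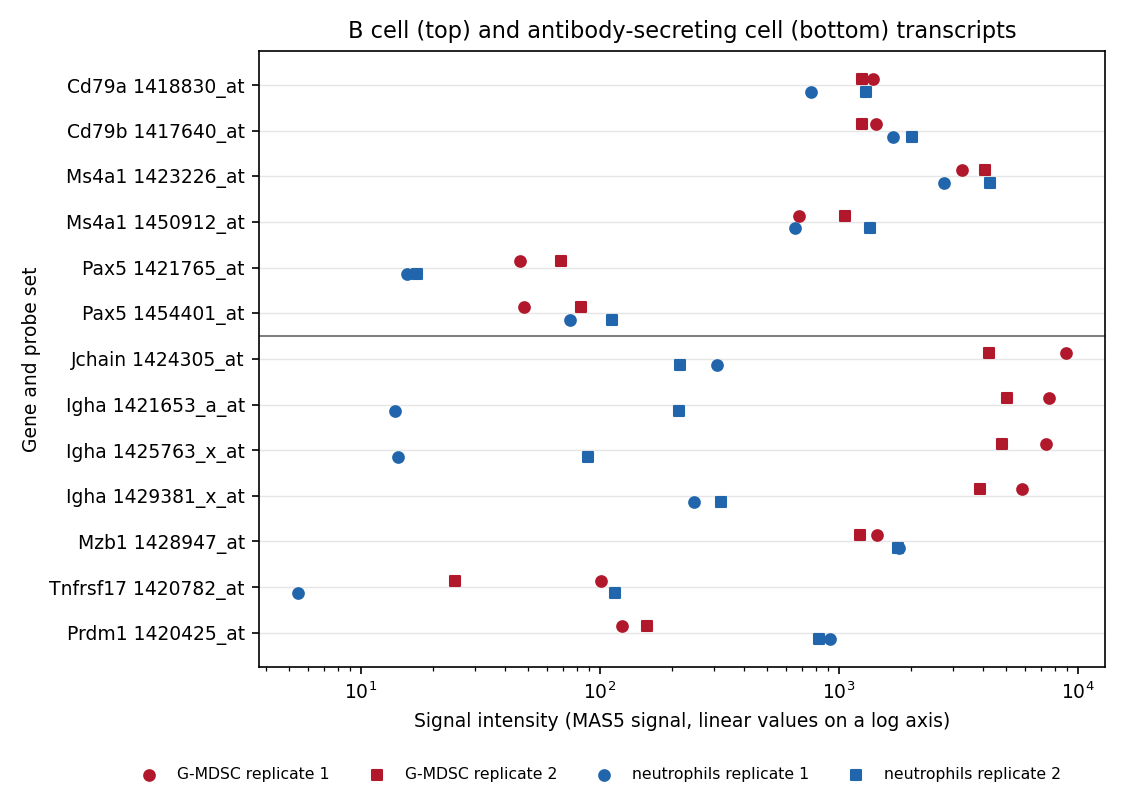
Signal intensity (log axis) of the 13 probe sets of the 9 genes in the 2 G-MDSC arrays (red) and the 2 neutrophil arrays (blue), with circles for replicate 1 and squares for replicate 2. Jchain and the 3 Igha probe sets lie between 3869 and 8912 in G-MDSC and at or below 320.2 in neutrophils, Prdm1 lies the other way round, and Cd79a, Cd79b, Ms4a1 and Mzb1 are close together.

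Counted over probe sets, 5 of the 13 were higher in both G-MDSC arrays than in both neutrophil arrays, 3 were lower in both and 5 overlapped. Over all single-symbol probe sets, 18.8% were higher in both G-MDSC arrays and 30.9% lower in both. In the fit across 13142 genes (limma with Benjamini-Hochberg adjustment at 0.05), 8.3% of genes were called higher and 8.05% lower in G-MDSC. These were 1091 and 1058 genes, or 924 and 395 with median scaling. The same fit put 2 of the 8 genes, Jchain and Igha, among the higher, 1, Prdm1, among the lower, and 5 in neither class. Nothing is read from these counts, since the genes were chosen with this comparison in view. The median log2 difference of all genes was -0.18, and median scaling moved that median up by 0.60, quantile normalization by 0.21.

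For Jchain and Cd79a, 1 transcript with a wide difference and 1 whose groups overlapped, the 250 bases before the annotated start of the gene are shown 5′ to 3′ on the strand of the gene, as RefSeq gives them for GRCm38.p6. Jchain lies at chr5:88527898-88528147 on the minus strand and Cd79a at chr7:24897247-24897496 on the plus strand. All bases are in lower case because neither of the 2 motifs searched on both strands occurs in either stretch.
Jchain: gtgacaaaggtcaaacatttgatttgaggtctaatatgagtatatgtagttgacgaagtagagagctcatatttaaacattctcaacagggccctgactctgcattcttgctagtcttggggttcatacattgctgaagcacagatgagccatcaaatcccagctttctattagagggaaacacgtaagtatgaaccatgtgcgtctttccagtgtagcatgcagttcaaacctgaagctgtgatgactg
Cd79a: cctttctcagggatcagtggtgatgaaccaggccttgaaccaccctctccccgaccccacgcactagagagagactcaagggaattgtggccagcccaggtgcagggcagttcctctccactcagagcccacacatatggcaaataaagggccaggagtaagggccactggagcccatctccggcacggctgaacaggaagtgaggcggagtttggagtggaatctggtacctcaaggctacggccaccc

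The motifs were the octamer ATGCAAAT, bound by OCT factors at immunoglobulin promoters, and CCCNNGGG, the core of the site bound by the B cell factor EBF1, which reads the same on both strands. Of 32851 promoter stretches of this length, 1.6% hold the octamer and 11.8% the EBF1 core. Promoters of 5 of the 9 genes were in the RefSeq table (Jchain, Cd79a, Pax5, Prdm1 and Tnfrsf17), and 0 of them held either motif. That says only that these letters are not in these windows. Only exact matches were counted, so a site that differs from these letters was not marked. Whether the factors bind these promoters cannot be read from it.

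Some other immunoglobulin transcripts were also higher in G-MDSC. Of 19 further genes with a single symbol from the heavy, kappa and lambda loci, 14 passed the filter, 5 rose in G-MDSC and 0 fell by limma (8 and 1 at an unadjusted p under 0.05). Over all genes tested 8.3% rose and 8.05% fell, and 15% were higher and 14.6% lower at an unadjusted p under 0.05. The log2 difference had a median of 1.27 over the 14 genes, each represented by 1 probe set, against -0.18 over all genes tested. Over their 24 probe sets that passed the filter it was 1.14, against -0.15 over all such single-symbol probe sets. Over all 40 it was 0.61. With no filter the median over all genes, each by 1 probe set, was -0.32. Of the 14 genes 1, Igkv4-72, passed the filter only through the G-MDSC arrays. Among the 24 the same held for its probe set, for an Igk probe set and for an Ighm probe set. These entered the medians of 1.27 and 1.14, and Igkv4-72 the unadjusted count of 8, because they were bright in G-MDSC. The median over all 40 uses no filter. Without G-MDSC replicates 1 and 2 the numbers that rose were 2 and 3, and without neutrophils replicate 2 it was 9. Without neutrophils replicate 1, 7 rose and 2 fell. Over the 40 probe sets of the 19 genes, dim ones included, both G-MDSC arrays were higher in 42.5% and lower in 5%, against 18.8% and 30.9% of all single-symbol probe sets.

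Ighm encodes the IgM heavy chain constant region, and the probe set that represents it had 25658 and 20555 in the G-MDSC arrays, against 13241 and 8576 in the neutrophil arrays, far above the 40th percentile of every array. It rose by 1.11 ± 0.33 on the log2 scale (SE, n = 2 per group; limma adjusted p = 0.0417), and was not called when replicate 1 (adjusted p = 0.347) or 2 (0.129) of G-MDSC was left out. Another Ighm probe set had 2280.4 and 377 in the G-MDSC arrays, against 37.3 and 115 in the neutrophil arrays. Both neutrophil values lay below the 40th percentile of their array (51.4 and 133). This probe set passed the filter only through the G-MDSC arrays, so nothing is read from its difference. Of the 11 Ighm probe sets 3 (27.3%), this one included, had both G-MDSC arrays higher, against 18.8% of all single-symbol probe sets. In 0 were both lower, against 30.9%, and 8 overlapped. The probe sets thus disagree on the size of the difference.

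Ighg3, the IgG3 heavy chain constant region, had 1669 and 725 in the G-MDSC arrays, against 102 and 231 in the neutrophil arrays, on the 1 of its 4 probe sets that passed the filter. It rose by 2.71 ± 0.48 (limma adjusted p = 0.00332), and was not called when replicate 1 of G-MDSC was left out (adjusted p = 0.0544). As with Jchain, the first G-MDSC array was the brighter one.

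The heavy chain variable gene Ighv14-2 had 1168 and 1199.5 in the G-MDSC arrays, against 180.2 and 270.0 in the neutrophil arrays, and rose by 2.34 ± 0.35 (limma adjusted p = 0.0013). Its G-MDSC arrays were nearly equal. The kappa variable genes Igkv9-120 and Igkv6-14 rose by 2.28 ± 0.44 (adjusted p = 0.00536) and 2.21 ± 0.49 (adjusted p = 0.0107) by limma. Igkv6-14 had 445 and 480 in the G-MDSC arrays, against 51.39 and 142 in the neutrophil arrays. These neutrophil values were dim, barely above the 40th percentiles of their arrays (51.37 and 133), which limits what its fold can say. The Igkv9-120 call rests on 1 probe set: another that passed the filter overlapped between the groups (0.21), and with the median of the probe sets the difference was 1.25 (adjusted p = 0.0732). The Igkv6-14 call was lost without G-MDSC replicate 1 (adjusted p = 0.131) or 2 (0.155). Igkv8-30, also a kappa variable gene, had 16120 and 9935 in the G-MDSC arrays, against 6399 and 12895 in the neutrophil arrays, and its groups overlapped. Variable genes resemble each other closely, so a probe set may read several of them.

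**Figure D2:**
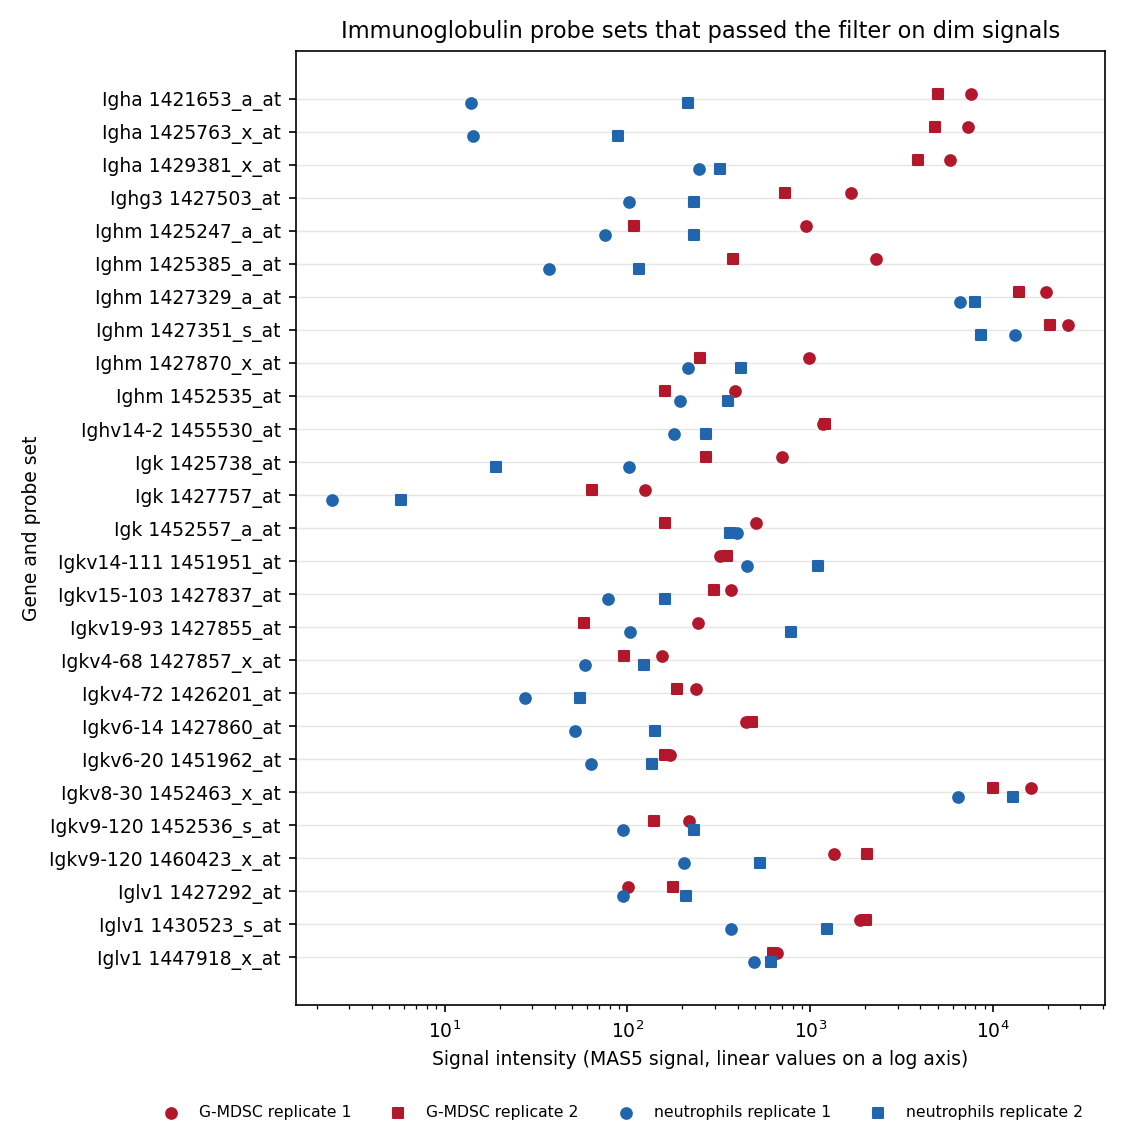
Signal intensity (log axis) of the 27 immunoglobulin probe sets that passed the filter, in the 2 G-MDSC arrays (red) and the 2 neutrophil arrays (blue), with circles for replicate 1 and squares for replicate 2. The Igha probe sets show wide gaps (3869 or more in G-MDSC, 320.2 or less in neutrophils), while Igkv8-30 (6399 to 16120) overlaps between the groups.

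Most other pan-B genes were not called, and neither were most of all genes tested. Of 25 tested, 2 rose and 3 fell in G-MDSC by limma, or 8% and 12%, against 8.3% and 8.05% of all genes, and 20 were not called. Their median log2 difference was 0.14. Cr2, the complement receptor CD21 of mature B cells, had 886 and 792 in the G-MDSC arrays, against 59.4 and 320.4 in the neutrophil arrays, and rose by 2.42 ± 0.58 (adjusted p = 0.0152). Its neutrophil arrays were far apart: the difference was 1.34 without neutrophils replicate 1 and 3.50 without neutrophils replicate 2, and it was not called without the intensity trend (adjusted p = 0.119). Cd37, a tetraspanin of B cells and other leukocytes, rose by 1.21 ± 0.30 (adjusted p = 0.0168), and was not called when replicate 1 (adjusted p = 0.0868) or 2 (0.207) of G-MDSC was left out. The 3 that fell were Cd40, the costimulatory receptor also made by macrophages (-2.38 ± 0.37, adjusted p = 0.00167), Ly9, a SLAM family receptor of lymphocytes and macrophages (-2.35 ± 0.34, adjusted p = 0.0011), and Pou2af1, the B cell coactivator OBF-1 (-1.14 ± 0.31, adjusted p = 0.0271). The Pou2af1 call was lost without G-MDSC replicate 1 (adjusted p = 0.198) or 2 (0.202). Pou2af1, whose product works with OCT factors in B cells, had 1108 and 1108 in the G-MDSC arrays, against 2169 and 2785 in the neutrophil arrays.

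Of the other pan-B genes, Cd22, an inhibitory co-receptor, had 1764 and 1582 in the G-MDSC arrays, against 1802 and 1353 in the neutrophil arrays. Blk, a B cell Src-family kinase, had 778 and 771 in the G-MDSC arrays, against 825 and 829 in the neutrophil arrays. Bank1, a B cell scaffold protein, had 1716 and 1876 in the G-MDSC arrays, against 1144 and 2029 in the neutrophil arrays. These 3 genes had differences of -0.09 to 0.23 on the log2 scale. The summed signal of the 25 genes was 26148 and 26826 in the G-MDSC arrays, against 21603 and 21679 in the neutrophil arrays. Cd37 alone had 8995 and 10550 in the G-MDSC arrays, against 4435 and 3956 in the neutrophil arrays. Without this gene the sums of the G-MDSC arrays were not the higher ones. The number that rose was 1 without either G-MDSC array, 7 without neutrophils replicate 1 and 5 without neutrophils replicate 2. In bulk samples such as these, fewer cells of a type and less RNA per cell cannot be told apart.

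Kinases and adaptors of B cell receptor signalling, many of which myeloid cells use as well, had calls in both directions. Of 16 tested, 1 rose and 3 fell in G-MDSC by limma, or 6.25% and 18.8%, against 8.3% and 8.05% of all genes. Pik3ap1, the adaptor BCAP, had a log2 difference of -2.24 ± 0.30 (adjusted p = 0.000771), Malt1, a paracaspase of NF-kappaB signalling, of -1.66 ± 0.30 (adjusted p = 0.00359) and Lcp2, the adaptor SLP-76, of -1.28 ± 0.30 (adjusted p = 0.0134). Prkcb, a protein kinase C, rose by 1.14 ± 0.34 (adjusted p = 0.0419). The Prkcb call was lost without any 1 of G-MDSC replicate 1 (adjusted p = 0.307), G-MDSC replicate 2 (0.0944) and neutrophils replicate 2 (0.0604), and that of Lcp2 without either G-MDSC array (0.179 and 0.0719). With median scaling Pik3ap1 (-1.61, adjusted p = 0.274), Malt1 (-1.02, adjusted p = 0.538) and Lcp2 (-0.64, adjusted p = 0.667) were not called, which left 0 lower. Without neutrophils replicate 1, 5 rose and 4 fell.

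Other genes of antibody-secreting cells had more calls of lower than of higher signal in G-MDSC. Of 19 tested, 1 rose and 4 fell by limma, or 5.26% and 21.1%, against 8.3% and 8.05% of all genes, with a median log2 difference of -0.38. Sdc1, syndecan 1 or CD138, the surface marker of plasma cells, had 98.0 and 31.8 in the G-MDSC arrays, against 245 and 491 in the neutrophil arrays, and fell by 2.30 ± 0.59 (adjusted p = 0.021). The second G-MDSC array lay below its 40th percentile, and the call was lost without it (adjusted p = 0.196). Ell2, an elongation factor that favours the secreted form of immunoglobulin mRNA, fell by 2.57 ± 0.31 (adjusted p = 0.000379), and was not called with median scaling (-1.93, adjusted p = 0.165). Slamf7, a receptor of plasma cells and other leukocytes, had a log2 difference of -1.93 ± 0.50 (adjusted p = 0.0225) and Creld2, an endoplasmic reticulum protein, of -1.30 ± 0.31 (adjusted p = 0.0158). The calls of Slamf7 and Creld2 were lost without G-MDSC replicate 1 (adjusted p = 0.144 and 0.118) or 2 (0.223 and 0.154). The gene that rose was Trp53inp1, a p53 target, by 2.94 ± 0.44 (adjusted p = 0.0013), or by 1.93 with the median of its probe sets.

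Xbp1, the transcription factor that expands the secretory apparatus of plasma cells, had 16928 and 21590 in the G-MDSC arrays, against 32897 and 45373 in the neutrophil arrays, a difference of -1.01 ± 0.32 that did not pass the threshold (limma adjusted p = 0.0548). Irf4, a factor required for plasma cells, had 262 and 450.2 in the G-MDSC arrays, against 437 and 429 in the neutrophil arrays. Its groups overlapped. The number of these genes that fell was 2 without G-MDSC replicate 1, 1 without G-MDSC replicate 2, 8 without neutrophils replicate 1 and 6 without neutrophils replicate 2. With median scaling 1 fell and 2 rose. Macrophage markers, given above, were lower in the same arrays, and their part in these differences was not tested.

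Genes of the secretory machinery of the endoplasmic reticulum, which plasma cells use heavily but all cells share, included several that fell. Of 20 tested, 8 fell and 1 rose in G-MDSC by limma, or 40% and 5%, against 8.05% and 8.3% of all genes, with a median log2 difference of -0.68. The largest falls were those of the stress-induced endoplasmic reticulum proteins Sdf2l1 (-2.12 ± 0.35, adjusted p = 0.00234), Pdia6 (-2.11 ± 0.33, adjusted p = 0.00157), Pdia4 (-1.95 ± 0.34, adjusted p = 0.00288) and Manf (-1.79 ± 0.37, adjusted p = 0.00737). Edem2, which acts in the degradation of misfolded glycoproteins, rose by 1.61 ± 0.30 (adjusted p = 0.00477). Its probe sets disagreed: with their median the difference was 0.65 (adjusted p = 0.272). The number that fell was 4 without G-MDSC replicate 2, and with median scaling 0 fell and 0 rose, so these calls depend on the scaling.

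Of 10 genes of early B cells tested, 1 rose and 2 fell in G-MDSC by limma, or 10% and 20%, against 8.3% and 8.05% of all genes. The 1 that rose, Erg, passed the filter only through the G-MDSC arrays, so nothing is read from its call. Cd93, a receptor of early B cells and also of myeloid and endothelial cells, had a log2 difference of -2.30 ± 0.35 (adjusted p = 0.00149) and Il7r, the interleukin 7 receptor, of -1.67 ± 0.40 (adjusted p = 0.0162). The Il7r call was lost without G-MDSC replicate 1 (adjusted p = 0.0979) or 2 (0.213), and with median scaling neither Cd93 (adjusted p = 0.117) nor Il7r (0.161) was called. Erg, a factor of haematopoietic stem cells, had 391 and 215 in the G-MDSC arrays, against 12.2 and 6.06 in the neutrophil arrays, both dim. The bound on its fold was 3.06, or 2.06 with the common floor. Given how Erg passed the filter, nothing is read from this bound either. The bound was 2.30-fold without G-MDSC replicate 1, 4.07-fold without G-MDSC replicate 2, 2.06-fold without neutrophils replicate 1 and 4.55-fold without neutrophils replicate 2. The surrogate light chain genes Igll1 and Vpreb1 had at most 317 and 73.8 signal units in any array. Without neutrophils replicate 1, 6 genes of this list fell.

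Genes of B-1 and marginal zone B cells, of which the first are a peritoneal and the second a splenic population, gave 0 that rose (1 at an unadjusted p under 0.05) and 2 of 10 (20%) that fell by limma, against 8.05% of all genes that fell and 15% higher at an unadjusted p under 0.05. These were Cd9, a tetraspanin also made by macrophages and platelets (-1.80 ± 0.32, adjusted p = 0.00316), and Myof, myoferlin (-2.41 ± 0.55, adjusted p = 0.0119). The Cd9 call was lost with median scaling (-1.16, adjusted p = 0.375). The Myof call was lost without G-MDSC replicate 2 (adjusted p = 0.13), so 1 gene was then lower. Bhlhe41, a factor of B-1 cells, had 90.9 and 158 in the G-MDSC arrays, against 109 and 106 in the neutrophil arrays, and did not separate the groups. Of the ligands and receptors of the BAFF and APRIL system, which sustains B cells and plasma cells, 4 were tested and 0 were called by limma in either direction, with 1 higher at an unadjusted p under 0.05. Tnfsf13b, which encodes BAFF, had 668 and 723 in the G-MDSC arrays, against 474 and 279 in the neutrophil arrays, and Tnfrsf13b, which encodes the receptor TACI, had 1178 and 913 in the G-MDSC arrays, against 1048 and 842 in the neutrophil arrays. The Tnfsf13b difference was 0.90 ± 0.37 (limma adjusted p = 0.122). Without neutrophils replicate 1, 1 gene of each of these 2 lists was called higher.

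**Figure D3:**
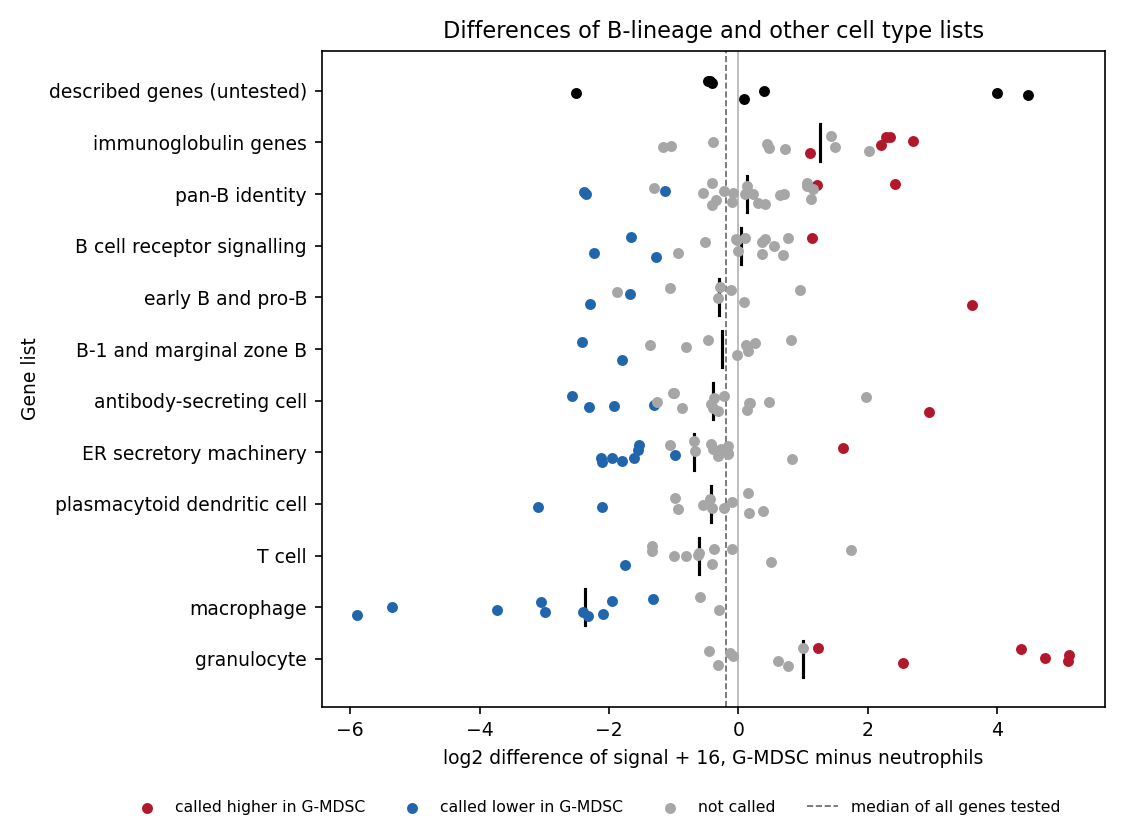
The log2 difference, G-MDSC minus neutrophils, of the 8 described genes that entered the fit (black, untested) and of each tested gene of the other lists drawn. Red marks genes called higher, blue those called lower and grey those not called, with a bar at each list's median and a dashed line at the median of all genes (-0.18). The BAFF and APRIL list and the erythroid list are not drawn. The immunoglobulin list lies to the right with a median of 1.27 (0.61 over all its 40 probe sets) and the macrophage list to the left with -2.36, while the pan-B list straddles 0.

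Markers of other cell types were read in the same fit, in which 8.3% of all genes rose and 8.05% fell. Of the plasmacytoid dendritic cell markers 16.7% fell, and of the T cell markers 8.33%. Plasmacytoid dendritic cells also make Mzb1 and Tcf4. Of 12 of their markers 2 fell, 0 rose (0 also at an unadjusted p under 0.05) and 10 were not called by limma. Those that fell were Bst2 (-2.11 ± 0.38, adjusted p = 0.00375) and Ccr9 (lower by at least 7.63-fold, or by 3.34-fold against a common floor). Ccr9 passed the filter only through the neutrophil arrays, so nothing is read from its call or its bound. Represented by the median over its probe sets, it was not called (-2.42, adjusted p = 0.0789). Siglech, a defining marker, had 51.1 and 93.4 in the G-MDSC arrays, against 92.1 and 109 in the neutrophil arrays. Their summed signal was 4848 and 8406 in the G-MDSC arrays, against 11877 and 7914 in the neutrophil arrays, which overlapped. Of 12 T cell markers 1, Cd2, fell (-1.75 ± 0.38, adjusted p = 0.00978), not called when replicate 1 (adjusted p = 0.11) or 2 (0.0517) of G-MDSC was left out, and 0 rose (1 at an unadjusted p under 0.05), with summed signals of 2396 and 1314 in the G-MDSC arrays, against 2634 and 2891 in the neutrophil arrays. Of 8 erythroid markers 0 were called by limma, 0 also at an unadjusted p under 0.05, though 2 were higher without neutrophils replicate 2 and 3 lower without neutrophils replicate 1. Tfrc, the transferrin receptor, had signals of 1667 and 1481 in the G-MDSC arrays, against 1651 and 1924 in the neutrophil arrays, and Epor, the erythropoietin receptor, 172 and 139.6 in the G-MDSC arrays, against 168 and 354 in the neutrophil arrays. Their summed signals were 2382 and 2331 in the G-MDSC arrays, against 2094 and 3310 in the neutrophil arrays. None of these markers was at 0 in any array, and their part in the B-lineage signals was not tested.

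Of 13 granulocyte genes 6 (46.2%) rose and 0 fell by limma, against 8.3% and 8.05% of all genes. At an unadjusted p under 0.05, 0 fell as well. Those that rose included the granule protein genes Mpo (5.12 ± 0.39, adjusted p = 1.71e-05), Camp (5.10 ± 0.37, adjusted p = 1.3e-05), Elane (4.74 ± 0.44, adjusted p = 6.03e-05) and Ltf (4.38 ± 0.44, adjusted p = 0.000105). The summed signal of the 13 was 326445 and 377929 in the G-MDSC arrays, against 227811 and 271923 in the neutrophil arrays.

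Mpo and Elane were also among the genes whose profile over the 4 arrays was most like that of Jchain. By Euclidean distance between log2 values centred on each gene's mean, the 5 nearest of all other genes tested were Elane (0.31), Ctsg (0.47), Reck (0.56), Prtn3 (0.66) and Mpo (0.74), of which Elane, Ctsg and Prtn3 encode serine proteases of neutrophil granules, Mpo myeloperoxidase and Reck an inhibitor of metalloproteinases. Elane had 5017 and 1993 in the G-MDSC arrays, against 127 and 82.6 in the neutrophil arrays, so it shared with Jchain the brighter first G-MDSC array and the brighter first neutrophil array. The 5 genes nearest to Cd79a were Zdhhc17, Ccdc61, Smc3, Chek2 and Psmf1, at distances of 0.06 to 0.08. With 4 arrays a profile has few points.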

How the data were processed

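Signal intensities of 2 G-MDSC and 2 neutrophil arrays were used. The deposited intensity values are linear signals per probe set, and have a 2% trimmed mean of 500 in every array. The submitters' processing notes name GCOS 1.4 and the MAS5 algorithm. Other settings are not given in the sources used here. Of 45101 probe sets 64 were controls, 34945 had 1 symbol, 932 several and 9160 none in the platform annotation. By gene ID, 34741 matched RefSeq (GRCm38.p6), used for names and promoters. No gene was named from a probe set with several symbols. Detection calls were not used. The number of arrays limits the precision.

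Values were analysed as log2(signal + 16), so folds understate changes of dim genes. Kept probe sets lay above the 40th percentile of their array in at least 2 arrays, and each gene was represented by the kept probe set with the highest mean log2 value. Differences, G-MDSC minus neutrophils, were fitted with limma 3.58.1 (R 4.3.3; lmFit, eBayes with an intensity trend, two-sided, Benjamini-Hochberg over 13142 genes, threshold 0.05). With 2 arrays in each group the smallest exact permutation p is 0.33, so none is given. On simulated data for these 13142 genes with 200 changed, 13.4%, 58.2% and 78.8% of 2-fold, 4-fold and 8-fold changes were recovered, with 4 unchanged genes called, when noise was drawn with the moderated SDs of the fit. With the raw SD of each gene 0% were recovered at any of these folds, so neither figure is the recovery of the real comparison. Tables and figures used Python 3.11.15, pandas 2.3.3, numpy 2.4.6 and matplotlib 3.10.9.

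The 9 genes and the gene lists were chosen with earlier results of these data known. Genes named from a list are its called genes, up to 4 per direction, or its 2 brightest where none was called. Further genes outside that rule were named for their role, after their values had been seen. The immunoglobulin list took symbols beginning Igh, Igk or Igl, without Ighmbp2 and Igha, without Iglon5, a cell adhesion gene, and without Igll1, which the early B list holds. Alternatives were other pseudocounts, filters, normalizations, variance models and probe set choices, a fit blocked on replicate number, and fits without 1 array. The bounds on folds were added after the data were seen.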

Additional observations from a re-analysis of the deposited data

How the results depend on the processing

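Fitted without an intensity trend, 148 genes rose and 331 fell, with median scaling 924 and 395, and with the replicate block 1699 and 1608. The blocked fit called all 2149 genes of the unblocked one, but with 2 pairs the numbers are not shown to pair the samples (r = 0.24 between the deviations of the 2 groups over 13142 genes). Leaving out 1 array gave 429 to 2418 higher and 561 to 3472 lower. Such fits take the lone array of a group to vary like the other group. Pan-B genes that rose numbered 4 with the filter at the 60th percentile, 4 with median scaling, 0 without the trend and 6 with the block, and 1 to 7 with an array left out. For antibody-secreting cell genes, 2 rose with quantile normalization, 2 with median scaling and 0 without the trend, and 1 to 2 with an array left out, while 2 fell with no filter, 1 with median scaling, 1 without the trend and 1 to 8 with an array left out. For secretory machinery, 0 rose with median scaling, without the trend or with the median of probe sets, 2 with the block and 1 to 2 with an array left out, while 0 fell with median scaling or without the trend and 4 to 11 with an array left out. For early B genes 0 to 1 rose with an array left out, while 1 fell with no filter, 0 with median scaling, 1 without the trend and 1 to 6 with an array left out. For receptor signalling, 0 rose with no filter, quantile normalization, median scaling or no trend, 2 with the median of probe sets, every probe set or the block, and 0 to 5 with an array left out, while 0 fell with median scaling, 1 without the trend and 2 to 4 with an array left out. For B-1 and marginal zone genes 0 to 1 rose with an array left out, while 1 fell with median scaling, 0 without the trend and 1 to 3 with an array left out. BAFF and APRIL genes had 0 to 1 that rose with an array left out. Of immunoglobulin genes 1 rose without the trend, 8 with the block and 2 to 9 with an array left out, while 1 fell with the block and 0 to 2 with an array left out. Many of these counts differ from the reported ones by over 1.5 times, and the cause was not tested. Not all do: the 924 of all genes tested that rose with median scaling stay within it.

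Over the 13 alternatives run on each, Jchain lay between 3.95 and 5.09, Igha between 3.71 and 6.15 (the highest with the median of its probe sets) and Prdm1 between -2.66 and -1.91. The other filters, the fit without the trend and the replicate block do not alter these differences, so the ranges come from the remaining alternatives. The difference of Cd79a lay between 0.02 and 1.03 (the highest with median scaling), Cd79b between -0.62 and 0.17, Mzb1 between -0.57 and 0.22, Ms4a1 between -0.22 and 0.73 and Pax5, over 12, between -0.76 and 0.36, so the sign of the last 4 was not fixed. Of the 52 called genes in the lists, 32 kept their call without each of the 4 arrays in turn, 21 kept it with median scaling and 16 without the intensity trend. Signals near or below the 40th percentile limit what can be said of Pax5 and Tnfrsf17. The same holds for the Igha probe sets other than the representing one, dim in the first or both neutrophil arrays.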
